A study of Homo sapiens with 18 samples.

Results

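The aminoacyl-tRNA synthetases and the scaffold proteins that hold some of them together were examined in 786-O cells after knockdown of USP13 or of ZHX2. The 38 genes were taken by symbol from a list of 19 cytosolic enzymes, 16 mitochondrial enzymes and the scaffold proteins AIMP1, AIMP2 and EEF1E1. All 38 were found among the 27098 genes to which the deposited transcripts could be summed, and all 38 passed the filter on low counts in both experiments. 786-O is an established clear-cell renal carcinoma line without functional VHL, the protein that targets hypoxia-inducible factors for destruction. USP13 is a deubiquitinating enzyme, ZHX2 is a transcription factor with zinc fingers and homeodomains, and the series title names ZHX2 as its substrate. The short hairpin RNAs were sh50 or sh52 in the USP13 experiment and sh43 or sh45 in the ZHX2 experiment, each experiment having its own libraries of a control hairpin, shCtrl. Each of these 6 groups had 3 libraries, which makes 18 in all. The titles and the condition field place sh43 and sh45 in the ZHX2 arm, but the protocol text describes hairpins 43 and 45 as USP13 reagents. The protocol also describes an inducible hairpin vector, and the labels do not say which vector or how long an exposure was used here. RNA is described as prepared in triplicate, with no word on separate cultures or infections, so the p-values below measure only the spread between these libraries, which may be technical.

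An aminoacyl-tRNA synthetase joins an amino acid to its matching tRNA, which then carries it to the ribosome. The cytosol and the mitochondrion have largely separate sets of these enzymes, all encoded in the nucleus, although GARS1 and KARS1 each encode the enzyme of both compartments. Several cytosolic synthetases sit in a large complex assembled on AIMP1, AIMP2 and EEF1E1. When amino acids run short or protein folding is disturbed, phosphorylation of the initiation factor eIF2 favours translation of the transcription factor ATF4, and cytosolic synthetase genes are among the known targets of ATF4.

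The targeted genes were read first, since they check the labels. ZHX2 was at 340.3, 344 and 344 CPM (CPM being counts scaled to library size with TMM factors) in its control, at 38.6, 43.4 and 38.6 with sh43 and at 90.8, 82.1 and 79.6 with sh45. USP13 was at 36.9, 34.7 and 31.8 CPM in its control, at 16.8, 17.1 and 20.5 with sh50 and at 14.8, 18.1 and 17.9 with sh52. Each targeted gene was lower in every library of its hairpins than in every control library, and ZHX2 was 1.06 ± 0.063 higher on the log2 scale under sh45 than under sh43 (standard error, SE; edgeR, adjusted p = 5.74e-14). In the ZHX2 experiment USP13 changed by -0.229 under sh43 and 0.165 under sh45, and only the first passed an edgeR adjusted p under 0.05. In the USP13 experiment ZHX2 changed by -0.202 under sh50 and -0.167 under sh52, and both passed. The libraries held 11192561 to 16511290 estimated counts. Mitochondrial ribosomal RNA took 1.25 ± 0.073% of the counts with shCtrl, 1.55 ± 0.031% with sh43 and 3.09 ± 0.26% with sh45 in the ZHX2 experiment (SD, n = 3), and in the other experiment 2.62 ± 0.078% with shCtrl, 4.26 ± 0.161% with sh50 and 3.70 ± 0.136% with sh52. Its part in the differences below was not tested. All 12 kidney epithelial and renal carcinoma markers were detected in every group, with a summed level of 5427 to 7715 CPM. The 10 leukocyte markers summed to 38.6 to 46.4 CPM with shCtrl, 20.0 to 20.7 with sh43 and 58.1 to 61.8 with sh45 in the ZHX2 experiment, and to 29.3 to 32.4 with shCtrl, 19.3 to 24.4 with sh50 and 36.8 to 38.5 with sh52 in the other. Most of this was CD68, a lysosomal membrane protein abundant in macrophages, at 41.2 ± 4.02, 17.1 ± 0.71 and 59.6 ± 2.19 CPM in the 3 ZHX2 groups and 29.9 ± 1.84, 19.7 ± 2.49 and 36.8 ± 0.66 CPM in the 3 USP13 groups, in the same order (SD, n = 3). The T cell markers CD3E and CD3D were at 0 in all 6 groups, MS4A1 and PTPRC were also at 0 in the 3 ZHX2 groups, and CSF1R was at 0.54 ± 0.27 CPM with shCtrl, 2.05 ± 0.22 with sh43 and 1.23 ± 0.28 with sh45 there. The part of these markers in the differences below was not tested. The endothelial markers summed to 0.44 to 3.97 CPM and the fibroblast markers to 3.13 to 9.65 CPM.

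In control cells most cytosolic enzymes had higher mRNA levels than most mitochondrial ones. Levels between genes are compared here in the deposited TPM, an abundance corrected for transcript length. The median over the 19 cytosolic enzymes was 94.9 TPM in the ZHX2 control and 98.1 TPM in the USP13 control, against 21.1 and 19.0 TPM over the 16 mitochondrial enzymes. TARS1, the threonine enzyme, was highest in both, at 198 ± 12.5 TPM in the ZHX2 control and 204 ± 12.2 TPM in the USP13 control (SD, n = 3). In the ZHX2 control it was followed by AARS1 at 154 ± 0.35 TPM, GARS1 at 149 ± 6.94 TPM and IARS1 at 140.1 ± 7.34 TPM, and the libraries of AARS1 and GARS1 overlapped, as did those of GARS1 and IARS1. FARSB, which encodes the beta subunit of the phenylalanine enzyme, was the lowest cytosolic member at 31.1 ± 1.41 TPM, while its partner FARSA was at 102 ± 10.9 TPM. IARS2 and CARS2 stood apart among the mitochondrial enzymes, at 116 ± 5.98 and 76.9 ± 0.91 TPM in the ZHX2 control and 125 ± 9.20 and 75.2 ± 3.10 TPM in the USP13 control. CARS2 was the only mitochondrial gene above its cytosolic counterpart in both controls, with a CARS1 to CARS2 ratio of 0.706 ± 0.029 and 0.678 ± 0.025 in TPM, and the IARS1 to IARS2 ratio was 1.21 ± 0.012 in the ZHX2 control and 0.866 ± 0.019 in the USP13 control. At the other end, AARS1 exceeded AARS2 by 11.9 ± 0.622 times in the ZHX2 control and 12.01 ± 0.155 times in the USP13 control. MARS2, the mitochondrial methionine enzyme, was lowest in the ZHX2 control at 6.16 ± 0.49 TPM and AARS2 was lowest in the USP13 control at 8.17 ± 0.23 TPM.

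**Figure D1:**
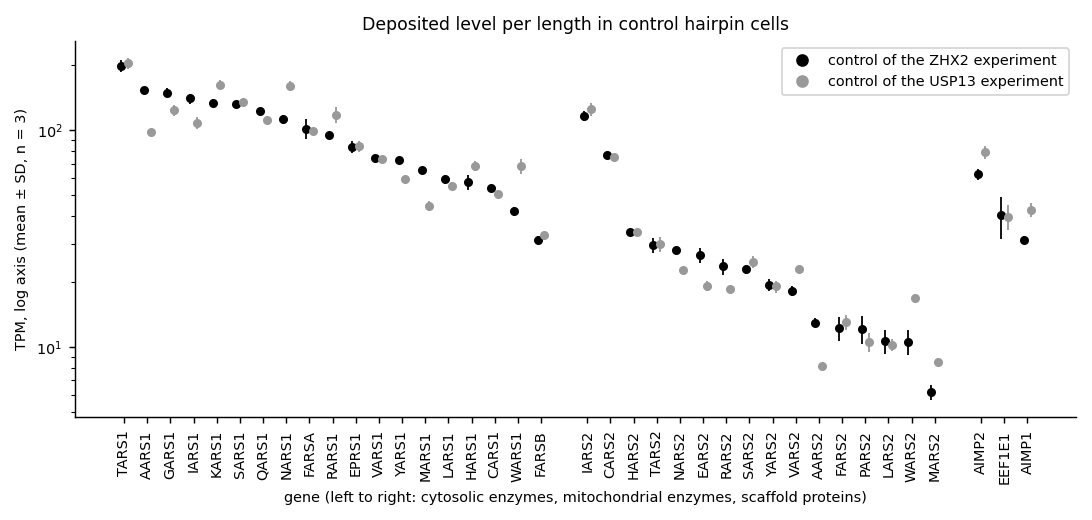
Deposited TPM of each gene in the control hairpin cells of the ZHX2 experiment (black) and of the USP13 experiment (grey), on a log axis. Points are means and bars are SDs over 3 libraries. The cytosolic enzymes (left) lie mostly above the mitochondrial enzymes (middle), among which IARS2 and CARS2 are the exceptions.

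Under sh43, the hairpin that left less ZHX2 mRNA, almost the whole cytosolic set was higher. Of the 19 cytosolic enzymes, 18 rose and 1, QARS1, fell at an edgeR adjusted p under 0.05, and the 3 scaffold genes rose. Of all 13605 genes tested, 68.8% passed, 33.5% being higher and 35.2% lower. The median change was 0.55 on the log2 scale over the cytosolic enzymes and -0.023 over all genes. The mitochondrial enzymes did not move one way: 4 rose, 5 fell and 7 did not pass, with a median of 0.01. The set looked different under sh45, where 4 cytosolic enzymes rose, 3 fell and 12 did not pass, with a median of 0, while 25.3% of all genes rose and 27.3% fell (52.6% together). Under sh45 a single mitochondrial enzyme rose and 7 fell, with a median of -0.19, and no scaffold gene passed. These changes are in TMM-scaled counts. In deposited TPM the cytosolic enzymes summed to 1598 ± 24.7 with sh45, 1879 ± 41.0 with shCtrl and 2727 ± 43.4 with sh43 (SD, n = 3). The mitochondrial enzymes summed to 365 ± 4.3, 459 ± 15.7 and 462 ± 13.5 TPM in the same order. The reason for the lower TPM sums with sh45 was not tested. The 3 libraries of sh43 all lay above the 3 control libraries for 18 cytosolic enzymes, 4 mitochondrial enzymes and the 3 scaffold genes, and all below them for QARS1 and 6 mitochondrial enzymes. Without sh45 replicate 3 the count of cytosolic rises under sh45 was 2, and without sh45 replicate 1 that of mitochondrial falls was 4. Under sh45 all libraries were on the same side of the control for 6 cytosolic enzymes above it and 6 below it, with 7 overlapping, and for 1 mitochondrial enzyme above and 7 below. The share of all genes separated in this way was not counted, so the counts of separated genes describe the members alone. With upper-quartile scaling NARS1 no longer passed under sh43 (adjusted p up to 0.108 over the alternatives), and the other 17 cytosolic rises passed under every alternative tried.

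**Figure D2:**
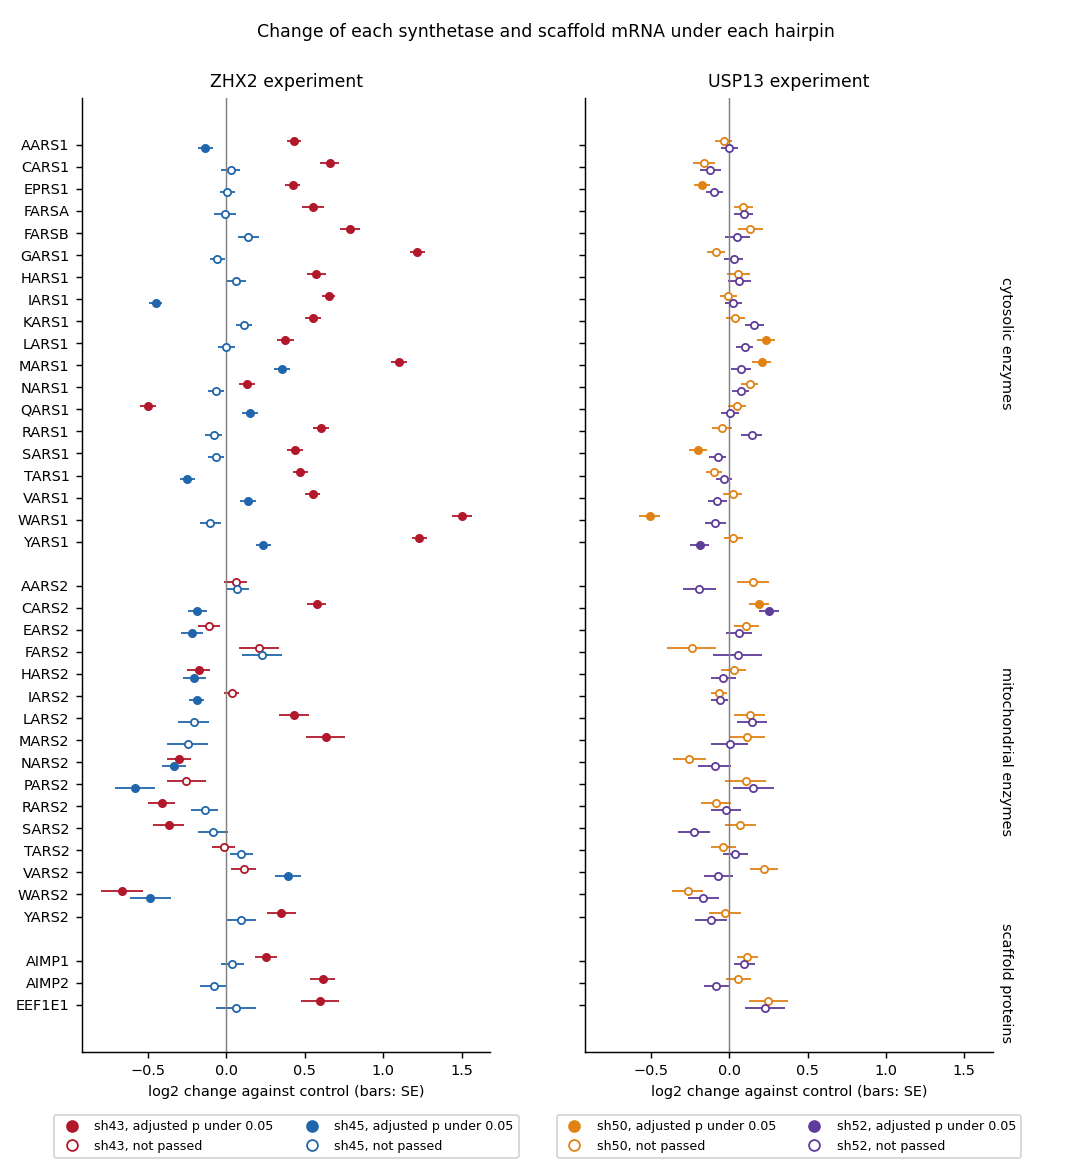
Change of each gene against the control of its own experiment, on the log2 scale, with bars of 1 SE. Filled points passed an adjusted p under 0.05 and open points did not. In the ZHX2 experiment (left) the cytosolic enzymes lie to the right of 0 under sh43 (red) except QARS1 and around 0 under sh45 (blue), and in the USP13 experiment (right) most genes of both compartments lie near 0.

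WARS1, YARS1 and GARS1 showed the largest changes of the set in the ZHX2 experiment. WARS1, which charges tryptophan tRNA and is also known as an interferon-inducible gene, was at 62.4, 61.9 and 56.0 CPM in the control libraries, at 167, 164 and 180.3 with sh43 and at 54.2, 57.8 and 56.1 with sh45. The sh43 libraries were far above both other groups, which overlapped. With sh43 WARS1 rose on the log2 scale by 1.50 ± 0.062 (SE; edgeR, adjusted p = 1.83e-17), ranking 377 from the top among 13605 genes, and its change under sh45 was -0.10 ± 0.065 (edgeR, adjusted p = 0.192). YARS1, the tyrosine enzyme, was at 121, 123 and 123 CPM in control, 288, 279 and 294 with sh43 and 144, 146 and 143 with sh45, so that the 3 groups did not overlap. It rose under both hairpins, by 1.23 ± 0.047 under sh43 and by 0.24 ± 0.048 under sh45 (edgeR, adjusted p = 4.15e-18 and 0.000169). GARS1, the glycine enzyme of both compartments, was at 196, 191 and 199 CPM in control, at 438, 451 and 473 with sh43 and at 179, 196 and 189 with sh45. All sh43 libraries lay above all others, and sh45 overlapped the control. Its change was 1.22 ± 0.047 under sh43 and -0.06 ± 0.048 under sh45 (edgeR, adjusted p = 5.32e-18 and 0.315).

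MARS1 and VARS1 completed the set of 3 cytosolic enzymes, of 19, that rose under both ZHX2 hairpins. That count is near the 14.1% of all genes that did so. MARS1 charges methionine tRNA, including the initiator tRNA. It was at 100.1, 104 and 101 CPM in control, 212, 218 and 226 with sh43 and 129, 134 and 127 with sh45, with no overlap between groups. It rose by 1.10 ± 0.051 under sh43 and by 0.35 ± 0.051 under sh45 (edgeR, adjusted p = 2.09e-16 and 2.21e-06). VARS1, the valine enzyme, was at 177, 180.3 and 172 CPM in control, 263, 256 and 256 with sh43 and 185, 194 and 205 with sh45. Here too the groups did not overlap, although the sh45 libraries lay close to the control. VARS1 rose by 0.55 ± 0.048 under sh43 and by 0.14 ± 0.049 under sh45 (edgeR, adjusted p = 1.22e-10 and 0.0179). The sh45 call of VARS1 ended without sh45 replicate 3 or without control replicate 3, with an adjusted p of up to 0.105. In deposited TPM VARS1 was at 71.2 ± 2.39 with sh45 and 74.5 ± 0.66 in control (SD, n = 3), so its sh45 rise was not seen there. With upper-quartile scaling, 5 cytosolic enzymes rose under both hairpins in place of 3.

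**Figure D3:**
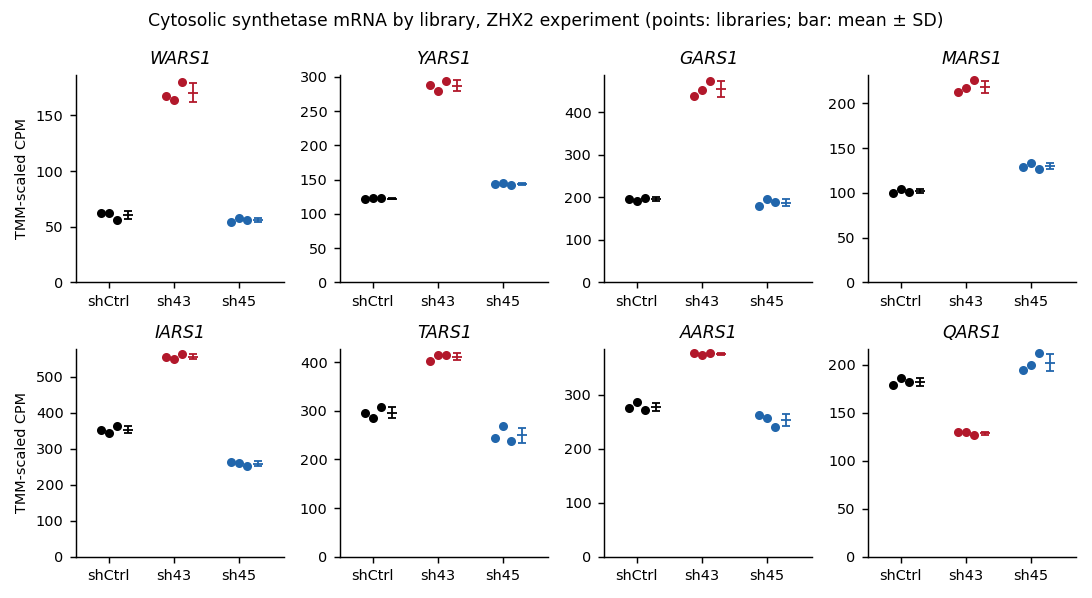
TMM-scaled CPM of 8 cytosolic synthetases in each library of the ZHX2 experiment, from an axis that starts at 0. Points are libraries and the bar beside them is the mean ± SD (n = 3). In the upper row sh43 lies above the control by the largest log2 changes of the set, and in the lower row sh43 and sh45 lie on opposite sides of the control.

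The remaining cytosolic enzymes that rose under sh43 did so by 0.13 to 0.79 on the log2 scale. They are described in order of their place in or outside the multi-synthetase complex, and were chosen for naming after their values were seen. Of the 7 enzymes of the complex 6 rose under sh43, with a median of 0.55 over the 7, and of the 12 enzymes outside it all 12 rose, with a median of 0.56. Within the complex the changes were 0.65 ± 0.041 for IARS1 (isoleucine), 0.60 ± 0.052 for RARS1 (arginine), 0.55 ± 0.050 for KARS1 (lysine, both compartments), 0.42 ± 0.047 for EPRS1 (glutamate and proline) and 0.38 ± 0.053 for LARS1 (leucine). Outside it, FARSB and FARSA, the subunits of the phenylalanine enzyme, changed by 0.79 ± 0.066 and 0.56 ± 0.070. CARS1 (cysteine) changed by 0.66 ± 0.059, HARS1 (histidine) by 0.58 ± 0.063 and TARS1 (threonine) by 0.47 ± 0.047. SARS1 (serine) changed by 0.44 ± 0.050, AARS1 (alanine) by 0.43 ± 0.044 and NARS1 (asparagine) by 0.13 ± 0.048. By structural class, 8 of 9 class I enzymes rose with a median of 0.65 and 9 of 9 class II enzymes rose with a median of 0.55, leaving out EPRS1, which carries both kinds of active site.

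A sequence feature that was not used to choose the genes was counted in their promoters. The 8-base motif TGATGCAA, the core of the composite element bound by ATF4 together with C/EBP proteins, was searched on both strands (TTGCATCA on the other) in windows of 300 bases that run from 250 before to 50 after each gene's start. It was present in 6 of the 16 cytosolic enzymes that have such a window in the RefSeq table (37.5%), in 0 of 14 mitochondrial enzymes, in 0 of 3 scaffold genes and in 1.08% of all 27305 genes in the table. The windows of the 6 genes are shown around the motif because they hold the same 8 letters, in 5 of the 6 within 15 bases of the start site. They are from RefSeq, build GRCh38.p14, written 5′ to 3′ on the gene's strand, with the motif in capitals.
AARS1, chr16:70289676-70289753, minus strand: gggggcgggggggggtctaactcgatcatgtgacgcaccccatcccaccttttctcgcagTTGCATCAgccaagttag
CARS1, chr11:3057408-3057485, minus strand: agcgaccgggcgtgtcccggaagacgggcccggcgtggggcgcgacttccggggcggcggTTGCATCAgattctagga
IARS1, chr9:92293693-92293770, minus strand: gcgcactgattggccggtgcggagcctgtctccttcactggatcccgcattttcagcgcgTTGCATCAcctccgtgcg
MARS1, chr12:57488004-57488081, plus strand: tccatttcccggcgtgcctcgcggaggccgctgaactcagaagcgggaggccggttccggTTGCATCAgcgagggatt
NARS1, chr18:57621807-57621882, minus strand: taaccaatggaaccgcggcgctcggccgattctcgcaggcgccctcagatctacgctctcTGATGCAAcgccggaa
TARS1, chr5:33440907-33440984, plus strand: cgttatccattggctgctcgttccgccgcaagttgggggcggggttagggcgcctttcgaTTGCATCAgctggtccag
The motif began at -187 in AARS1, -13 in IARS1, -4 in MARS1, -2 in CARS1, 3 in TARS1 and 15 in NARS1, counting the first transcribed base as 1. In NARS1 it was in the opposite orientation to the other 5. GARS1 had TTTCATCA at -33, which matches the looser motif TGATGNAA on the other strand and is shown here because its mRNA was among the 3 that changed most.
GARS1, chr7:30594785-30594862, plus strand: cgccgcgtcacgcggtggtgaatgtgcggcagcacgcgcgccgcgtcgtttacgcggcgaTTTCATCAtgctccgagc
With the looser motif (TGATGNAA, N being any base, which includes the first motif; both strands), 7 of 16 cytosolic enzymes, 1 of 14 mitochondrial enzymes (YARS2) and 4.46% of all genes held a match. The 6 genes with TGATGCAA changed by 0.13 to 1.10 under sh43, and the 10 cytosolic enzymes whose window lacks it changed by -0.50 to 1.50, so both ends of the range lay among genes without these letters. A match is a run of letters and not a measured binding site, and windows of VARS1, YARS1, LARS1, AARS2 and VARS2 were not searched.

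The ZHX2 hairpins were also tested against each other, with ZHX2 mRNA higher under sh45 as given above. All 19 cytosolic enzymes differed between sh45 and sh43, 18 being lower under sh45 and QARS1 higher, where 34.2% of all genes were higher and 32.7% lower (66.9% together). The median difference, sh45 minus sh43, was -0.57 over the cytosolic enzymes and 0.02 over all genes. The largest was in WARS1 (-1.61 ± 0.062), followed by GARS1 (-1.28 ± 0.047) and IARS1 (-1.11 ± 0.042). For 4 enzymes the hairpins moved the mRNA in opposite directions against the control, in TMM-scaled counts. IARS1, TARS1 and AARS1 rose under sh43 and fell under sh45, and QARS1 did the reverse. The share of all genes called in opposite directions was not counted. IARS1 was at 352, 344 and 364 CPM in control, 555, 549 and 561 with sh43 and 263, 259.9 and 251 with sh45. The control libraries lay between the hairpins without overlap, and the sh45 change was -0.45 ± 0.042 (edgeR, adjusted p = 9.92e-10). TARS1 was at 295, 285 and 308 CPM in control, 403, 415 and 415 with sh43 and 243, 268 and 238 with sh45, a fall of 0.25 ± 0.048 under sh45 (edgeR, adjusted p = 9.94e-05). AARS1 was at 276, 286 and 272 CPM in control, 377, 372 and 376 with sh43 and 263, 257 and 241 with sh45. Its smaller fall under sh45, -0.13 ± 0.045 (edgeR, adjusted p = 0.0148), did not pass with upper-quartile scaling, without sh45 replicate 3 or without control replicate 2 (adjusted p up to 0.147 over the alternatives).

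QARS1, the glutamine enzyme, was the cytosolic exception. It was at 179, 186 and 182 CPM in control, 129.8, 129.5 and 127 with sh43 and 195, 200.0 and 212 with sh45. Every sh43 library was below every control library and every sh45 library above. QARS1 fell by 0.50 ± 0.050 under sh43 and rose by 0.15 ± 0.049 under sh45 (edgeR, adjusted p = 1.29e-09 and 0.0105), and the sh45 call ended without sh45 replicate 3 (adjusted p up to 0.0674). In deposited TPM QARS1 was at 118 ± 3.39 with sh45 and 122 ± 1.95 in control (SD, n = 3), with overlapping libraries. Its sh45 rise was thus not seen in TPM, while its sh43 fall was (81.9 ± 2.71).

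Among the mitochondrial enzymes the calls shared by both ZHX2 hairpins were falls. HARS2, NARS2 and WARS2 fell under sh43 and under sh45, 3 of 16, which is near the 15.9% of all genes that did so. No mitochondrial enzyme rose under both (2 did without control replicate 2). WARS2, the mitochondrial tryptophan enzyme, was at 14.6, 14.9 and 17.8 CPM in control, 10.8, 8.37 and 10.9 with sh43 and 10.5, 10.2 and 13.1 with sh45. It fell by 0.67 ± 0.134 under sh43 and by 0.49 ± 0.131 under sh45 (edgeR, adjusted p = 8.9e-05 and 0.00289), while its cytosolic counterpart WARS1 had the largest rise of the set under sh43. NARS2 (asparagine) was at 33.1, 34.2 and 34.5 CPM in control, 26.6, 29.0 and 26.8 with sh43 and 27.2, 26.7 and 26.7 with sh45. Both hairpin groups lay wholly below the control, by 0.30 ± 0.077 and 0.34 ± 0.077 (edgeR, adjusted p = 0.00118 and 0.000694). HARS2 (histidine) was at 42.4, 44.0 and 44.1 CPM in control, 37.8, 38.9 and 38.9 with sh43 and 34.0, 39.0 and 40.5 with sh45. Its changes of -0.18 ± 0.074 and -0.20 ± 0.074 passed narrowly (edgeR, adjusted p = 0.0384 and 0.0227). The sh43 call of HARS2 ended under 10 of 15 alternatives and the sh45 call under 5, among them DESeq2 for both, with adjusted p up to 0.135 and 0.165. Libraries whose removal ended a HARS2 call were sh43 replicates 1, 2 and 3, sh45 replicates 1 and 3, and control replicates 2 and 3.

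The other mitochondrial enzymes were called under a single hairpin or in opposite directions. Under sh43, CARS2, LARS2, MARS2 and YARS2 rose by 0.58, 0.43, 0.63 and 0.35, and RARS2 and SARS2 fell by 0.41 and 0.37. CARS2, the mitochondrial cysteine enzyme, which is also known to make cysteine persulfides, was at 73.8, 75.4 and 73.5 CPM in control, 116, 104 and 112 with sh43 and 63.5, 65.9 and 66.6 with sh45. It rose by 0.58 ± 0.060 under sh43 and fell by 0.18 ± 0.061 under sh45 (edgeR, adjusted p = 2.89e-09 and 0.0135), the only mitochondrial enzyme called in opposite directions, and the sh45 call ended without sh45 replicate 1 (adjusted p up to 0.0558). PARS2 (proline) had the largest fall of the mitochondrial set under sh45, -0.59 ± 0.128, beside EARS2 (-0.22) and IARS2 (-0.19). EARS2, which charges mitochondrial glutamine tRNA with glutamate as the first step of a detour through an amidotransferase, lost its call without sh45 replicate 1, sh45 replicate 3 or control replicate 3 (adjusted p up to 0.0577). VARS2 (valine) was the only mitochondrial enzyme that rose under sh45, by 0.39 ± 0.081, and its cytosolic counterpart VARS1 also rose there. AARS2, FARS2 and TARS2 passed under neither hairpin. Between the hairpins 9 of the 16 mitochondrial enzymes differed, 6 being lower and 3 (RARS2, SARS2 and VARS2) higher under sh45, and MARS2 differed most (-0.88 ± 0.125). Of these calls PARS2 ended without sh43 replicate 1 or 2 or sh45 replicate 1 or 3, SARS2 without sh43 replicate 2 or sh45 replicate 3, VARS2 without sh45 replicate 3 and YARS2 without sh43 replicate 1 or 3 or sh45 replicate 1 (adjusted p up to 0.137, 0.124, 0.0593 and 0.127). Several of these are among the least abundant genes of the set: MARS2 was at 9.57, 11.5 and 9.68 CPM in control.

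The scaffold genes rose under sh43, as most cytosolic enzymes did. AIMP2, the core scaffold, was at 29.9, 35.3 and 33.4 CPM in control, 50.5, 49.1 and 51.7 with sh43 and 28.1, 35.0 and 30.4 with sh45. EEF1E1, also called AIMP3, was at 13.2, 19.7 and 15.2 CPM in control, 21.6, 25.4 and 25.9 with sh43 and 15.2, 19.1 and 16.2 with sh45. In both genes sh43 lay above all control libraries and sh45 overlapped them. AIMP2, EEF1E1 and AIMP1 rose under sh43 by 0.62 ± 0.081, 0.60 ± 0.122 and 0.26 ± 0.071 (edgeR, adjusted p = 2.05e-07, 0.000107 and 0.00245). All 3 were lower under sh45 than under sh43, by 0.70, 0.53 and 0.22 on the log2 scale. The AIMP1 difference did not pass with upper-quartile scaling or without sh43 replicate 2 (adjusted p up to 0.0754).

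USP13 knockdown left most of the set without a call, as it did most of all genes, and the cytosolic counts were near the shares of all genes. Under sh50, 2 cytosolic enzymes rose, 3 fell and 14 did not pass, where 10.2% of all genes rose and 11.3% fell (21.4% together). Under sh52 a single cytosolic enzyme fell and none rose, where 5.45% of all genes rose and 6.57% fell (12% together). The cytosolic medians were 0.02 and 0.03, those of the mitochondrial enzymes 0.05 and -0.03, and the medians over all 13717 genes tested 0.003 and -0.001. Of the 16 mitochondrial enzymes 1 rose and none fell under each hairpin. No scaffold gene passed under either hairpin. No member fell under both hairpins, as 4.16% of all genes did. Over the 38 genes the changes ran from -0.51 to 0.25 under sh50 and from -0.22 to 0.25 under sh52.

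CARS2 was the only member called under both USP13 hairpins. It was at 75.9, 71.6 and 78.9 CPM in control, 84.9, 89.3 and 83.8 with sh50 and 84.5, 93.7 and 91.4 with sh52, with both hairpin groups wholly above the control. CARS2 rose by 0.19 ± 0.065 under sh50 and by 0.25 ± 0.065 under sh52 (edgeR, adjusted p = 0.0394 and 0.0113), 1 of 16 mitochondrial enzymes where 3.25% of all genes rose under both. Its sh50 call ended without sh50 replicate 1 or 2 or without control replicate 1 or 2, and its sh52 call without control replicate 2 (adjusted p up to 0.191 and 0.0852 over the alternatives).

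The largest change of the set in the USP13 experiment was a fall of WARS1. WARS1 was at 104, 106 and 95.5 CPM in control, 68.6, 70.1 and 75.6 with sh50 and 92.1, 97.0 and 98.3 with sh52. The sh50 libraries lay below all others, and sh52 overlapped the control. WARS1 fell by 0.51 ± 0.065 under sh50 (edgeR, adjusted p = 2.17e-06) and changed by -0.09 ± 0.064 under sh52 (edgeR, adjusted p = 0.424). The hairpins differed from each other by 0.42 ± 0.065, sh52 minus sh50 (edgeR, adjusted p = 8.81e-05). LARS1, the leucine enzyme and a known leucine sensor of the mTORC1 pathway, was at 157, 157 and 154 CPM in control, 181, 177 and 193 with sh50 and 173, 166 and 163 with sh52. It rose by 0.24 ± 0.055 under sh50 (edgeR, adjusted p = 0.00266), with a change of 0.10 ± 0.055 under sh52 that did not pass (edgeR, adjusted p = 0.262). The other sh50 calls were small, a rise of MARS1 by 0.21 and falls of SARS1 and EPRS1 by 0.20 and 0.17. Each of these 3 ended when single libraries were left out (adjusted p up to 0.0847, 0.0799 and 0.139). Control replicate 2 ended all 3. Sh50 replicate 1 ended MARS1 and EPRS1, sh50 replicate 2 ended SARS1 and EPRS1, control replicate 3 ended MARS1 and control replicate 1 ended EPRS1. The sh52 fall of YARS1, -0.19 ± 0.062 (edgeR, adjusted p = 0.0465), ended under 12 of 15 alternatives, including the removal of any of 8 of the 9 libraries, all but sh50 replicate 3 (adjusted p up to 0.161). Between sh52 and sh50, where 5.48% of all genes were higher and 4.73% lower, WARS1 was higher under sh52 and YARS1, AARS2 and VARS2 were lower (10.2% of all genes differed). The last 3 calls each ended without sh50 replicate 1 or sh52 replicate 1, YARS1 and VARS2 also without sh50 replicate 2, AARS2 without replicate 3 of either hairpin, and VARS2 without sh52 replicate 2 or control replicate 1 or 2 (adjusted p up to 0.118, 0.18 and 0.186).

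The response to ZHX2 hairpins was set against the response to USP13 hairpins in 1 model over the 18 libraries, where a response is the mean of both hairpins minus the experiment's own control. Of the 19 cytosolic enzymes 14 were higher in the ZHX2 response and 1, QARS1, was lower, where 20.7% of all 14209 genes tested were higher and 22.7% lower. The median difference was 0.27 over the cytosolic enzymes and -0.012 over all genes. WARS1 differed most (1.01 ± 0.077), then YARS1 (0.83 ± 0.065), GARS1 (0.62 ± 0.065) and MARS1 (0.60 ± 0.068). The ZHX2 hairpins differed from each other in all 19 genes, so their mean stands for neither of them. For IARS1, whose hairpins moved apart, the difference of 0.11 ± 0.059 did not pass (edgeR, adjusted p = 0.149). Of the mitochondrial enzymes YARS2 was higher in the ZHX2 response and EARS2, PARS2 and WARS2 were lower, with a median of -0.01. The call of QARS1 ended without USP13 control replicate 1 or 2 (adjusted p up to 0.0549). The calls of YARS2 and EARS2 ended under 11 of 23 alternatives each and that of WARS2 under 13, mostly with a single library of either experiment left out, and PARS2 (-0.54 ± 0.158) passed under all of them. AIMP2 was the scaffold gene that differed (0.29 ± 0.101), a call that ended without USP13 control replicate 2 or ZHX2 control replicate 1 (adjusted p up to 0.0878).

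Genes that act with the synthetases were described from lists chosen by function. The amino acid response list holds ATF4, its partners and upstream kinases, amino acid transporters and enzymes of amino acid synthesis. Under sh43, 22 of its 31 tested genes rose and 2 fell, with a median of 0.73 on the log2 scale, and under sh45 10 rose and 8 fell, with a median of 0.08. Of all genes 33.5% rose and 35.2% fell under sh43 and 25.3% rose and 27.3% fell under sh45, so the sh45 counts are near those of all genes. Both hairpins raised 9 of its genes and lowered 2, where 14.1% of all genes rose and 15.9% fell under both. They moved 3 in opposite directions, for which the share of all genes was not counted. ATF4 itself was at 279, 309 and 296 CPM in control, 409, 393 and 413 with sh43 and 323, 329 and 338 with sh45, and rose by 0.46 ± 0.045 and 0.16 ± 0.045 (edgeR, adjusted p = 1.04e-09 and 0.00346). SLC7A11, the cystine importer, rose by 2.29 under sh43 and 0.19 under sh45. The folate enzymes SHMT2 and MTHFD2 rose by 1.26 and 1.25 under sh43 and by 0.21 and 0.18 under sh45, and the transcription factor CEBPB by 1.13 and 0.51. ASNS, which makes asparagine, rose by 1.04 and 0.19, and PYCR1, of proline synthesis, by 0.81 and 0.38. SLC7A1, an importer of cationic amino acids, rose by 0.35 and 0.31, and EIF2AK4, the kinase GCN2 that senses uncharged tRNA, by 0.40 and 0.18. SLC38A2, an importer of neutral amino acids, fell under both hairpins, by 0.42 and 0.19, as did the lipoprotein receptor gene VLDLR, by 0.48 and 0.71. CHAC1, PSAT1 and PSPH rose under sh43 and fell under sh45, as IARS1, TARS1 and AARS1 did. Of the calls named here, the sh45 rise of SLC7A11 ended under 9 of 15 alternatives, including DESeq2 and the removal of any sh43 library, of sh45 replicate 1 or 2 or of control replicate 2 (adjusted p up to 0.233). Single libraries ended the sh45 calls of ASNS (sh45 replicate 1 or 3, control replicate 1 or 3), EIF2AK4 (sh45 replicate 1 or 2), MTHFD2 (control replicate 3) and PSAT1 (sh45 replicate 3), with adjusted p up to 0.0972, 0.0576, 0.0643 and 0.0627. With upper-quartile scaling or without control replicate 3, the count of falls under sh43 was 4.

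**Figure D4:**
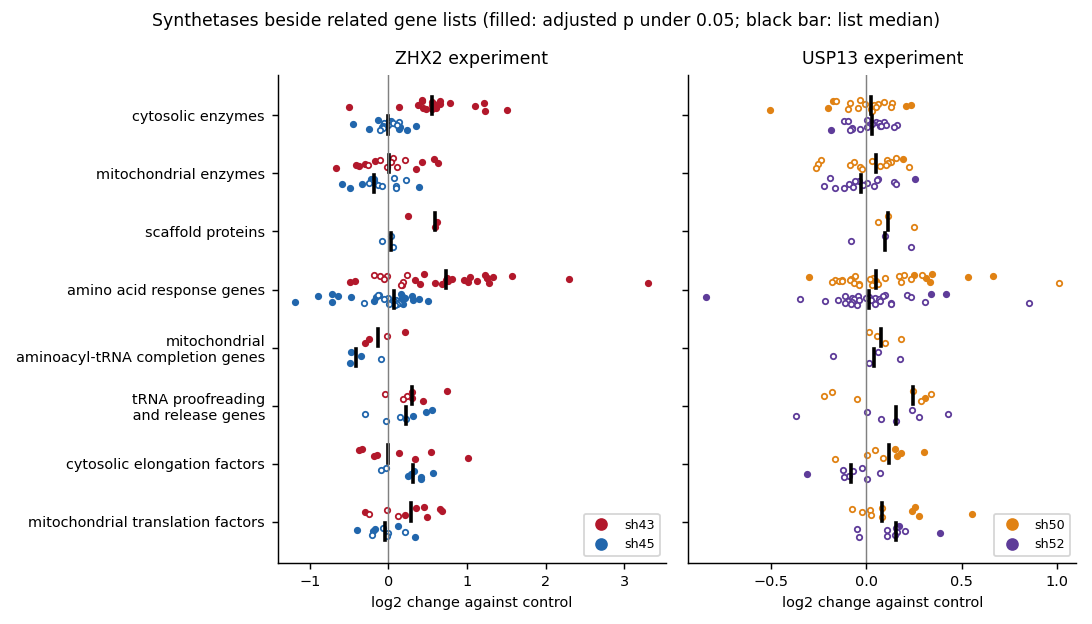
Change of each tested gene against its own control, on the log2 scale, for the synthetases and for the lists of related genes. Filled points passed an adjusted p under 0.05, open points did not, and the black bar is the list's median, with different x axes in the ZHX2 (left) and USP13 (right) panels. Under sh43 the cytosolic enzymes except QARS1, the 3 scaffold proteins and 25 of 31 amino acid response genes lie to the right of 0, and under sh45, sh50 and sh52 their medians lie near 0.

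In the USP13 experiment, 6 of the 31 amino acid response genes rose and 1 fell under sh50, and 2 rose and 1 fell under sh52. Of all genes 10.2% rose and 11.3% fell under sh50 and 5.45% rose and 6.57% fell under sh52, so the sh52 rises are near the share of all genes. ATF4 was at 214, 227 and 250.1 CPM in control, 300.1, 291 and 288 with sh50 and 297, 276 and 300.5 with sh52, with both hairpin groups above the control. It rose by 0.35 ± 0.058 and 0.34 ± 0.058 (edgeR, adjusted p = 7.73e-05 and 0.000227), and ATF3, a stress transcription factor, rose by 0.25 and 0.42. PSAT1, of serine synthesis, fell by 0.30 and 0.84. The sh50 rise of ATF3 ended without sh50 replicate 3 or control replicate 1 or 2 (adjusted p up to 0.11). Without control replicate 2 the count of rises under sh50 was 3 and without control replicate 3 that under sh52 was 4. Falls under sh50 were 2 without sh50 replicate 1 or 3 and 4 without sh52 replicate 1, and falls under sh52 were 2 without sh50 replicate 3 or sh52 replicate 2. Beside this, the changes of the cytosolic synthetases ran from -0.51 to 0.24 under sh50 and from -0.19 to 0.16 under sh52.

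Enzymes that complete mitochondrial charging were also read. QRSL1, GATB and GATC form the amidotransferase that turns glutamate into glutamine on the tRNA, and MTFMT formylates the initiator methionine. MTFMT fell under both ZHX2 hairpins, by 0.30 and 0.48, QRSL1 rose by 0.22 under sh43 and fell by 0.48 under sh45, GATC fell under sh43 (-0.24) and GATB fell under sh45 (-0.35). Of all genes 33.5% rose and 35.2% fell under sh43, 25.3% rose and 27.3% fell under sh45, and 15.9% fell under both. The sh43 call of MTFMT ended with DESeq2, with no filter, and without sh43 replicate 1 or 3 or control replicate 1 or 2 (adjusted p up to 0.111), and that of QRSL1 with upper-quartile scaling and without sh43 replicate 2 or 3 or control replicate 3 (adjusted p up to 0.0629). None of the 4 passed in the USP13 experiment, although 1 rose under sh50 without sh52 replicate 1. There 21.4% of all genes passed under sh50 and 12% under sh52. The list medians were -0.13 under sh43, -0.41 under sh45, 0.07 under sh50 and 0.04 under sh52. Among the 7 proofreading and release genes, AARSD1, which clears misacylated alanine tRNA, and DTD1, a deacylase, rose under both ZHX2 hairpins, by 0.75 and 0.55 and by 0.31 and 0.48. Of all genes 14.1% rose under both.

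Some members share exonic bases with neighbours, and the library kit does not mark strand, so reads there cannot be told apart. AIMP2 shares 38.7% of its exonic bases with EIF2AK1 on the other strand, SARS2 15.8% with MRPS12, and HARS1 and HARS2 share 402 bases with each other, 9.5% of HARS1 and 14.2% of HARS2. MARS1 shares 62 bases, 2.13%, with DDIT3, a stress-induced gene that rose by 1.23 under sh43. EEF1E1 shares 26.9% with the read-through gene EEF1E1-BLOC1S5. SARS2 also shares 67.4% with an unnamed gene on its own strand. AIMP1 shares 11.7% with TBCK, EARS2 8.1% with UBFD1, YARS1 7.7% with S100PBP and WARS1 6.4% with WDR25, all on the other strand. This list is not complete, and the values of members with shared bases carry that uncertainty.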

How the data were processed

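RNA was measured in 18 libraries of 6 groups, taken from the sample titles. Each deposited file is a Salmon quantification by RefSeq transcript; per the file headers it gives the length, effective length, TPM and number of reads. Per the submitters' processing notes, the tools were Salmon 0.11.3, STAR 2.5.2b, cutadapt 1.12 and DESeq2 1.14.1 and the build was hg19, with no roles stated. Estimated counts are as deposited, unscaled, and all were whole. TPM as deposited by the authors, corrected for length and scaled within a library, entered no test. They served to compare levels between genes and to set some values of the ZHX2 groups beside the TMM-scaled counts. The deposited effective lengths entered no test.

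Estimated counts of 60422 listed transcripts (1342 further copies) were rounded and summed to genes, with names for 59301 from the RefSeq gene table and 709 from GENCODE. The 412 unnamed transcripts (0.0793% to 0.1133% of a library) were left out. Genes were filtered with filterByExpr, which left 13717 genes (USP13), 13605 (ZHX2) and 14209 (all 18 libraries), scaled with TMM and tested with edgeR 4.0.16 (glmQLFit, glmQLFTest, R 4.3.3), 1 mean per group and 9 libraries per fit, with Benjamini-Hochberg adjustment over all genes tested. A gene rose or fell where its adjusted p was under 0.05. The SE is the absolute log2 change divided by the square root of F. The fits were tested on simulated data. For the fit of 18 libraries, recovery of changed genes over all levels fell short of the limit first set. The missed genes had low counts, and the limit was then set without such genes. The fits were not changed.

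The members and the gene lists were chosen with earlier results of these data known. Full values are given for members called under both hairpins of an experiment in the same direction and for the 3 largest changes per experiment among called members, and genes of the lists are named with their changes where they were called under both hairpins in the same direction; any others were named after their values were seen. Alternatives were DESeq2 1.42.0, RLE and upper-quartile scaling, no filter on low counts, a hairpin and its control alone, replicate numbers as a block, and each library left out. Promoter windows were matched by symbol in RefSeq's table for GRCh38.p14, a build other than the one named in the notes, and no other coordinates are given.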

Additional observations from a re-analysis of the deposited data

Results flagged for a closer look

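Members whose change differed between groups, by a test of the difference itself (edgeR, adjusted p under 0.05), are counted here. Between the ZHX2 hairpins, sh45 against sh43, 19 cytosolic enzymes, 9 of 16 mitochondrial enzymes and 3 scaffold genes differed, where 66.9% of all genes did, so that the mitochondrial share was not above that of all genes. All 19 cytosolic and all 3 scaffold differences except that of QARS1 were lower values under sh45. Between the ZHX2 response and the USP13 response, 15 cytosolic enzymes, 4 of 16 mitochondrial enzymes and 1 of 3 scaffold genes differed, where 43.4% of all genes did, the mitochondrial and scaffold shares being below that. The cytosolic differences were higher values in the ZHX2 response except that of QARS1.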

How the results depend on the processing

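No called member changed direction under any alternative, nor did any called gene of the related lists, for which the same alternatives were run after the data had been seen. Deposited TPM was not among the alternatives, and in it the sh45 rises of QARS1 and VARS1 were not seen. Of the 109 member calls over the 7 comparisons, 29 ended under at least 1 alternative. Most were small changes, and 2 of the 31 calls under sh43 (HARS2 and NARS1) were among them. Same-numbered libraries showed no shared deviation, with a correlation of -0.104 to 0.057 in the USP13 experiment and -0.065 to 0.039 in the ZHX2 experiment. For libraries of different numbers it was -0.099 to 0.083 and -0.076 to 0.088. Whether the libraries were prepared in pairs cannot be told from these values. With the replicate block, the count of mitochondrial rises fell from 1 to 0 under sh50 and under both USP13 hairpins (CARS2), cytosolic falls under sh52 from 1 to 0 (YARS1), and mitochondrial enzymes lower under sh52 than sh50 from 2 to 1. Cytosolic falls under sh52 were also 0 with upper-quartile scaling, no filter or the hairpin and control alone. Mitochondrial rises under sh50 were 2 with no filter or the hairpin and control alone, which also gave 1 mitochondrial fall under sh50 and 0 mitochondrial enzymes lower under sh52 than sh50. With no filter 2 cytosolic enzymes were higher under sh52 than sh50 in place of 1. Upper-quartile scaling gave 5 in place of 3 cytosolic enzymes higher under both ZHX2 hairpins. In the ZHX2 against USP13 response, mitochondrial enzymes higher were 0 in place of 1 with upper-quartile scaling or no filter, and those lower were 1 in place of 3 with DESeq2, RLE scaling or no filter. With 1 library left out at a time, the counts of rises and falls moved as follows. Cytosolic: rises 1 to 3 under sh50, 0 to 1 under sh52 and 2 to 4 under sh45, falls 1 to 3 under sh50 and 0 to 1 under sh52, and 1 to 2 higher and 0 to 1 lower under sh52 than sh50. Mitochondrial: rises 0 to 2 under sh50, 0 to 1 under sh52, 0 to 1 under both USP13 hairpins, 1 to 2 under sh45 and 0 to 2 under both ZHX2 hairpins, falls 0 to 1 under sh50 and 4 to 7 under sh45, 0 to 2 lower under sh52 than sh50, and 1 to 3 higher under sh45 than sh43. In the ZHX2 against USP13 response the ranges were 0 to 1 for cytosolic enzymes lower, 0 to 2 and 1 to 3 for mitochondrial enzymes higher and lower, and 0 to 1 for scaffold genes higher. There 13 to 15 cytosolic enzymes were higher. Under sh43 mitochondrial rises were 4 to 6 and falls 4 to 5, and under sh45 cytosolic falls were 2 to 3. Under both ZHX2 hairpins cytosolic rises were 2 to 3 and mitochondrial falls 2 to 3. Lower under sh45 than sh43 were 4 to 6 mitochondrial enzymes and 2 to 3 scaffold genes. The cause of these moves was not tested.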

Other observations

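Factors that act after charging, at the ribosome, were read from lists made in the same way as those of the report. Of 8 cytosolic elongation factors, 4 rose and 4 fell under sh43, and 6 rose and none fell under sh45 (1 fell without ZHX2 control replicate 3), with medians of 0 and 0.31 on the log2 scale. Of all genes 33.5% rose and 35.2% fell under sh43, and 25.3% rose and 27.3% fell under sh45. EIF5A, which helps the ribosome through difficult peptide bonds, rose by 1.02 ± 0.045 under sh43 and 0.41 ± 0.045 under sh45, and EEF1B2, an exchange factor that recharges the carrier of aminoacyl-tRNA, by 0.54 ± 0.048 and 0.33 ± 0.048 (edgeR, adjusted p = 8.99e-17, 2.01e-08, 1.66e-10 and 2.05e-06). EEF2, the translocase, had the pattern of QARS1: it fell by 0.18 ± 0.034 under sh43 and rose by 0.25 ± 0.034 under sh45 (edgeR, adjusted p = 5.62e-05 and 9.83e-07). The sh43 and sh45 calls of EIF5A, EEF1B2 and EEF2 passed under every alternative tried. EEF1D and EIF5A2 also rose under both ZHX2 hairpins, by 0.13 and 0.57 and by 0.34 and 0.42, where 14.1% of all genes rose under both. The sh43 call of EEF1D ended with upper-quartile scaling and without sh43 replicate 1 or 3 or control replicate 1 or 3 (adjusted p up to 0.152). In the USP13 experiment, where 10.2% of all genes rose under sh50 and 6.57% fell under sh52, 4 of the 8 rose under sh50 and 1, EEF1G, fell under sh52 by 0.31 ± 0.051 (edgeR, adjusted p = 0.000126).

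Of 10 mitochondrial translation factors, 6 rose and 1 fell under sh43 with a median of 0.29, and 2 rose and 3 fell under sh45 with a median of -0.04, the sh45 counts being near those of all genes given above. The 3 falls under sh45 were 1 without sh45 replicate 3 or control replicate 1 or 2, and the 2 rises were 1 without sh43 replicate 1, sh45 replicate 2 or 3, or control replicate 1 or 3. The single fall under sh43 ended without sh43 replicate 1 or 2 or control replicate 3. GFM1, a mitochondrial translocase, rose by 0.66 ± 0.066 under sh43 and was lower under sh45 than under sh43 by 0.83 (edgeR, adjusted p = 1.66e-09 and 2.82e-11). TUFM, which carries aminoacyl-tRNA to the mitochondrial ribosome, and the release factor gene MTRFR rose under both ZHX2 hairpins, by 0.45 and 0.12 and by 0.49 and 0.34. Of all genes 14.1% rose under both. The sh45 call of TUFM ended under 7 of 15 alternatives, those of the libraries named for the 2 rises among them (adjusted p up to 0.191). In the USP13 experiment 4 of the 10 rose under sh50 (2 without sh50 replicate 3), where 10.2% of all genes did, and 2 under sh52, where 5.45% did. The sh52 rises were TUFM and MTRF1, which rose under both USP13 hairpins, by 0.25 and 0.17 and by 0.56 and 0.38, where 3.25% of all genes rose under both. The sh52 call of TUFM ended under 4 of 15 alternatives and that of MTRF1 under 12 (adjusted p up to 0.116 and 0.192), in MTRF1 with the removal of any library except control replicate 3. Without sh52 replicate 1 or control replicate 1 or 2 none rose under sh52. EEF2, EEF1G and GFM1 were chosen for naming after their values were seen.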
